A study of Mus musculus with 8 samples.

Results

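The sequences described here are 66 short RNAs that the authors' small RNA tables list as predicted miRNAs, that is, as candidates without an established miRNA name. They were taken from the raw count table by the marking of a prediction in the mature name, with 1 row for each distinct mature sequence, and they make up 66 of the 443 distinct sequences in the table. The other 377 carry an established mouse miRNA name. Each predicted sequence is called here by the chromosome and locus number in its deposited name, as in chr9_31011. The sources used here do not name the tool behind the prediction.

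Liver RNA was counted in 8 libraries from male C57BL/6J mice, an inbred strain, aged 10 to 11 weeks. HFrD was fed to 1 group of 4 libraries for 2 weeks and supplied 10% of its energy as fat, 70% as carbohydrate and 20% as protein. The labels call it a model of non-alcoholic fatty liver disease (NAFLD), and the series title calls the disease induced by fructose. The other 4 libraries came from mice on a chow diet for the same 2 weeks, and its composition is not recorded. Neither group carries a genetic change in the labels. The labels number the libraries as replicates and do not say that each came from a different mouse, so p-values measure the spread between these libraries.

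A miRNA is cut in steps from a hairpin precursor, first by Drosha in the nucleus and then by Dicer in the cytoplasm, and is loaded into an Argonaute protein. Its seed, the bases just after the 5′ end, pairs with messenger RNAs (mRNAs), which are then repressed. Cutting at a slightly different place gives length variants of a miRNA, called isomiRs. Programs that look for further miRNAs score read stacks on possible hairpins, and pieces of ribosomal RNA (rRNA), transfer RNA (tRNA), small nucleolar RNA (snoRNA) or mRNA can also lie on such hairpins. The liver is rich in miRNA from hepatocytes, above all miR-122.

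The sequences that the results below turn on are given 5′ to 3′ as deposited, with the seed (bases 2 to 8) in capitals. The first pairs show predicted sequences beside the established miRNAs they resemble.
chr8_29082: uGGCUCAGuucagcaggaaca
miR-24-3p: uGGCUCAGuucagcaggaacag
chr17_14226: uCCCUGAGacccuuuaac
miR-125a-5p: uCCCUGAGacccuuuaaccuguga
The next 2 lie in 18S rRNA, the RNA of the small ribosomal subunit, and 1 of them is the predicted sequence that passed the test between diets.
chr9_31011: gAGGCCCUguaauuggaaugagu
chr8_29782: uUCUUAGUugguggagc
The next 3 lie at an end of a snoRNA.
chr17_13216: aCUCUCUCacucugcaug
chr13_8486: cUGCAUGUggacaugucugcc
chr17_14306: aAGGUUAUagaaauuucagacaaua
The next 2 lie in the 3′ untranslated region (UTR) of Scd1.
chr11_4667: aAGUGGAUcugguuguac
chr3_20128: uUCCCAGAgacugacaga
The last 3 were tested between diets and matched no annotated transcript on the same strand over their whole length.
chr14_9687: uUGGGACUgguacuccuu
chr13_8700: uAAUCUGAagguccugagu
chrM_32017: aUAAGGACuguaagacuucaucc

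Library totals ran from 1120035 to 1638036 counts in HFrD and from 1223473 to 1339840 counts in chow, so a single count was worth 0.610 to 0.893 CPM (counts-per-million of the library). The smallest value in the table is 2 and the remaining cells are empty, 64.8% of those of predicted sequences and 30.2% of those of established ones. An empty cell was taken as 0, though values under 2 are not listed, and an alternative took it as 1. All 4 hepatocyte miRNAs checked were listed, and together they held 608197 to 653384 CPM in HFrD and 616858 to 674640 CPM in chow. Markers of other cells were also present, with miR-126a-3p of endothelium at 5898 to 7396 CPM in HFrD and 7329 to 8763 CPM in chow. Of 3 muscle markers, 2 were listed, together at 534 to 660 CPM in HFrD and 519 to 739 CPM in chow, and miR-133a-3p was not. Of 2 neuron markers, 1 was listed, at 1.57 to 3.57 CPM in HFrD and 1.59 to 3.27 CPM in chow, and miR-124-3p was not. In such bulk tissue, fewer cells of a type and less RNA per cell cannot be told apart.

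The predicted sequences were rare, and their counts sat in very few of them. Together they held 6302 counts, 0.0602% of all counts. chr8_29082 alone held 62.0% of these 6302 counts, the top 2 sequences held 76.6% and the top 7 held 92.1%. The median summed count over 8 libraries was 4 for a predicted sequence and 45 for an established one.

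The summed share of the library total was slightly higher in HFrD. It was 0.0632, 0.0671, 0.0648 and 0.0632% in HFrD replicates 1 to 4, and 0.0583, 0.0513, 0.0593 and 0.0531% in chow replicates 1 to 4. The means were 0.0646 ± 0.00186% in HFrD and 0.0555 ± 0.00387% in chow (SD, n = 4 each), and the groups did not overlap. Without chr8_29082 the share was 0.0263 ± 0.00290% in HFrD and 0.0194 ± 0.00298% in chow (SD, n = 4 each), and again the groups did not overlap. These shares are a description and were not tested. They rest on unscaled library totals. On that scale the median log2 fold change, HFrD over chow, of the 170 sequences tested below was 0.13. With the scaling used for the tests it was 0.01. The factor of that scaling was 1.13 for HFrD replicate 1 and 0.960 for chow replicate 3. With the shares divided by these factors, HFrD replicate 1 lies below chow replicate 3. The groups thus overlap on that scale, though without chr8_29082 they stay apart.

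More predicted sequences were listed per HFrD library. HFrD replicates 1 to 4 listed 26, 28, 31 and 23 of the 66, and chow replicates 1 to 4 listed 19, 22, 18 and 19. Every HFrD library thus listed more of them than any chow library. Established miRNAs gave overlapping numbers, 254 to 281 of 377 in HFrD and 243 to 268 in chow. HFrD replicate 3, which listed the most predicted sequences, was the deepest library, while HFrD replicate 2, which listed the second most, was the shallowest. The part of depth in these numbers was not tested. With at least 3 counts asked for, the separation was lost while the means kept their order: HFrD replicates 1 to 4 listed 17, 21, 20 and 16 and chow replicates 1 to 4 listed 14, 12, 13 and 18. The means were 18.5 ± 2.38 in HFrD and 14.25 ± 2.63 in chow (SD, n = 4 each), and the groups overlapped through chow replicate 4.

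**Figure D1:**
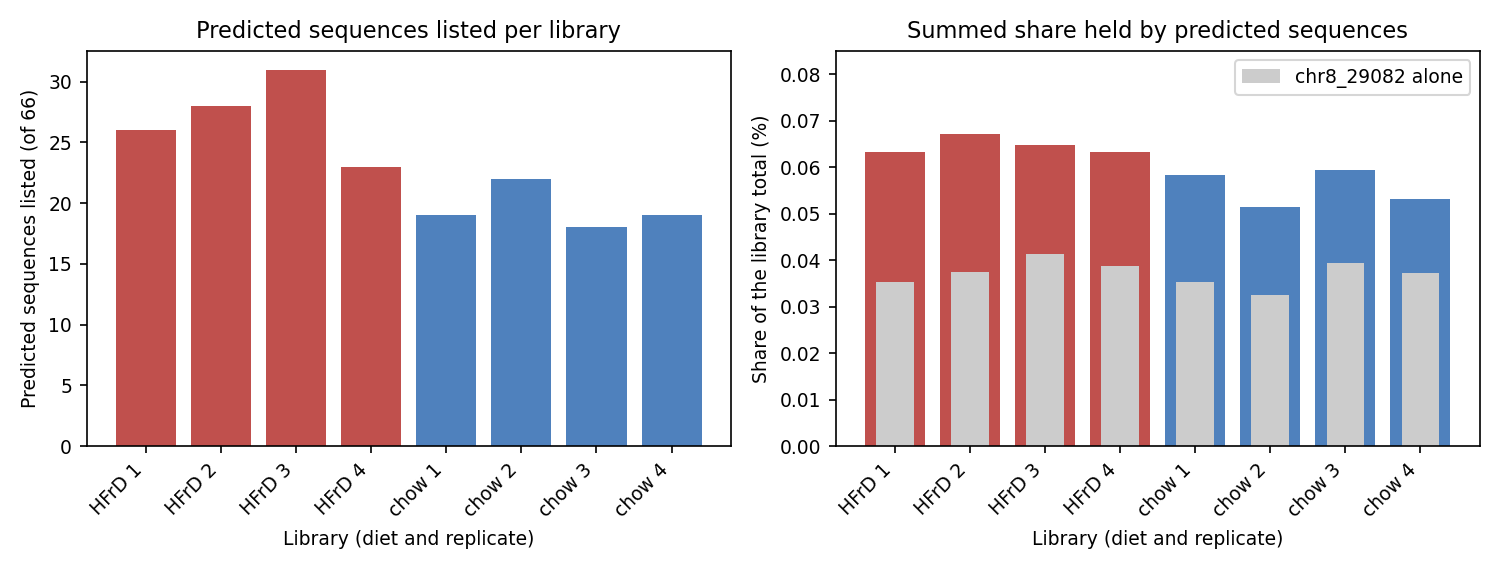
Number of the 66 predicted sequences listed in each library (left) and their summed share of the library total in percent (right), for HFrD (red) and chow (blue) replicates 1 to 4; grey bars are chr8_29082 alone. HFrD libraries listed 23 to 31 predicted sequences and chow libraries 18 to 22.

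Most predicted sequences were seen once. Of the 66, 38 (57.6%) were listed in 1 library, and 26 of these 38 had a count of 2, the smallest value in the table. Only 9 (13.6%) were listed in all 8 libraries. Among established miRNAs the order was the other way, with 61 (16.2%) in 1 library and 196 (52.0%) in all 8. By diet, 28 predicted sequences were listed in HFrD libraries and in no chow library, 15 in chow libraries and in no HFrD library, and 23 in both. The 28 held 102 counts in all, and 23 of them were in a single library. The 15 held 36 counts, each in a single library. The corresponding numbers of established miRNAs were 46 for HFrD, 33 for chow and 298 for both.

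Their lengths also differed from those of established miRNAs. Predicted sequences were 17 to 25 bases long with a median of 20, and the most frequent length was 18 bases (21 of 66, 31.8%). Established ones had a median of 22 bases, and 224 of 377 (59.4%) had exactly 22. Under 20 bases lay 31 predicted sequences (47.0%) and 2 established ones (0.531%). The typical range of Dicer products, 21 to 23 bases, held 25 predicted sequences (37.9%) and 352 established ones (93.4%). The first base was similar in both sets: it was U, the base that Argonaute proteins often prefer there, in 30 predicted sequences (45.5%) and 168 established ones (44.6%). The median G and C content was 52.2% in predicted and 47.6% in established sequences. A hairpin usually yields RNA from both of its arms. None of the 74 predicted precursors gave more than 1 listed sequence, whereas 102 of 308 established precursors (33.1%) did. The predicted set has 74 entries for these 74 precursors, and whether a second arm would have been listed is not known. A rarer arm could also fall under the smallest listed value of 2.

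**Figure D2:**
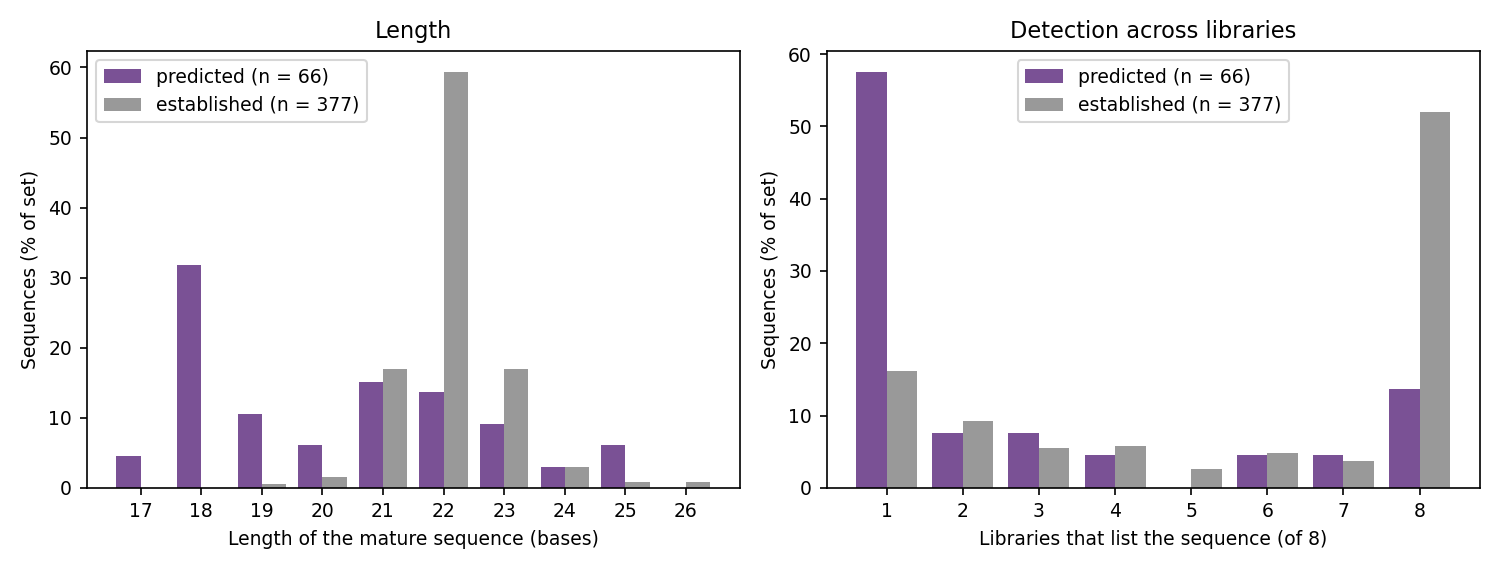
Length in bases (left) and number of libraries that list a sequence (right), each as a percent of the 66 predicted (purple) or the 377 established (grey) sequences. Predicted sequences peak at 18 bases and at 1 library, established ones at 22 bases and at 8 libraries.

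Each sequence was searched whole and without mismatch in the annotated mouse transcripts (GENCODE M21, build GRCm38) and in the RefSeq miRNA hairpins (GRCm38.p6). A match on the same strand was found for 40 of 66 predicted (60.6%) and 370 of 377 established sequences (98.1%). A RefSeq hairpin held 2 predicted (3.03%) and 324 established sequences (85.9%). A protein-coding transcript, with no such hairpin, held 28 predicted (42.4%) and 3 established sequences (0.796%). A snoRNA or a small Cajal body RNA held 5 predicted (7.58%) and 13 established sequences (3.45%). With both strands searched, 21 predicted and 5 established sequences still matched nothing. No genome sequence was at hand, so tRNAs of the nuclear genome were not searched and the predicted hairpins were not located. A match is a description and does not show which RNA a count came from.

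Sorted by match, the 66 fell into 7 classes. These were 3 sequences related to established miRNAs, 5 in snoRNAs, 2 in 18S rRNA, 1 in a mitochondrial tRNA, 31 in mRNAs or other long transcripts, 4 with a match on the opposite strand alone and 20 with no match. chr4_23017, counted with the established miRNAs, has no exact match. The 20 include chrM_32017, which matched the opposite strand of a mitochondrial tRNA over all but 1 of its bases. In 30 of the 40 sequences with a same-strand match, a matched gene was on the chromosome of the deposited name. In the other 10 it was on another chromosome, and all 10 were 17 to 19 bases long, against 8 under 20 bases among the 30.

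The 3 related to miRNAs share runs of at least 16 bases with an established sequence, and the next longest run among the others was 13 bases. chr8_29082 is miR-24-3p without its last base. It lies within both miR-24 genes, Mir24-2 (chr8:84208875-84208895, plus strand) and Mir24-1 (chr13:63301251-63301271, plus strand). miR-24 is a widely expressed miRNA known from cell cycle and apoptosis studies. chr17_14226 is the first 18 bases of miR-125a-5p and lies in Mir125a (chr17:17830817-17830834, plus strand). chr4_23017 is like miR-143-3p, a miRNA of smooth muscle and other mesenchymal cells, and carries A3G against it, with the miR-143-3p base first and positions counted from 1 at the 5′ end. Because its seed differs, it shared no seed with miR-143-3p.

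Of the 66 sequences, 7 passed the low-count filter and were compared between diets with edgeR's quasi-likelihood test, with Benjamini-Hochberg adjustment over the 170 sequences that passed. The 59 others, with at most 65 counts over 8 libraries, were not tested. The test called 1 of the 7 at an adjusted p under 0.05, and it called 10 of all 170 sequences (5.88%), 4 higher (2.35%) and 6 lower (3.53%) in HFrD. With library totals as the scale, 17 were higher and 6 lower. At an unadjusted p under 0.05 lay 3 of the 7 and 23.5% of the 170. HFrD and chow values were fully apart for 1 of the 7 and for 14.1% of the 170. The log2 fold change, HFrD over chow, was above 0 for 4 of the 7 and for 52.4% of the 170, and its median was 0.25 over the 7 and 0.01 over the 170.

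**Figure D3:**
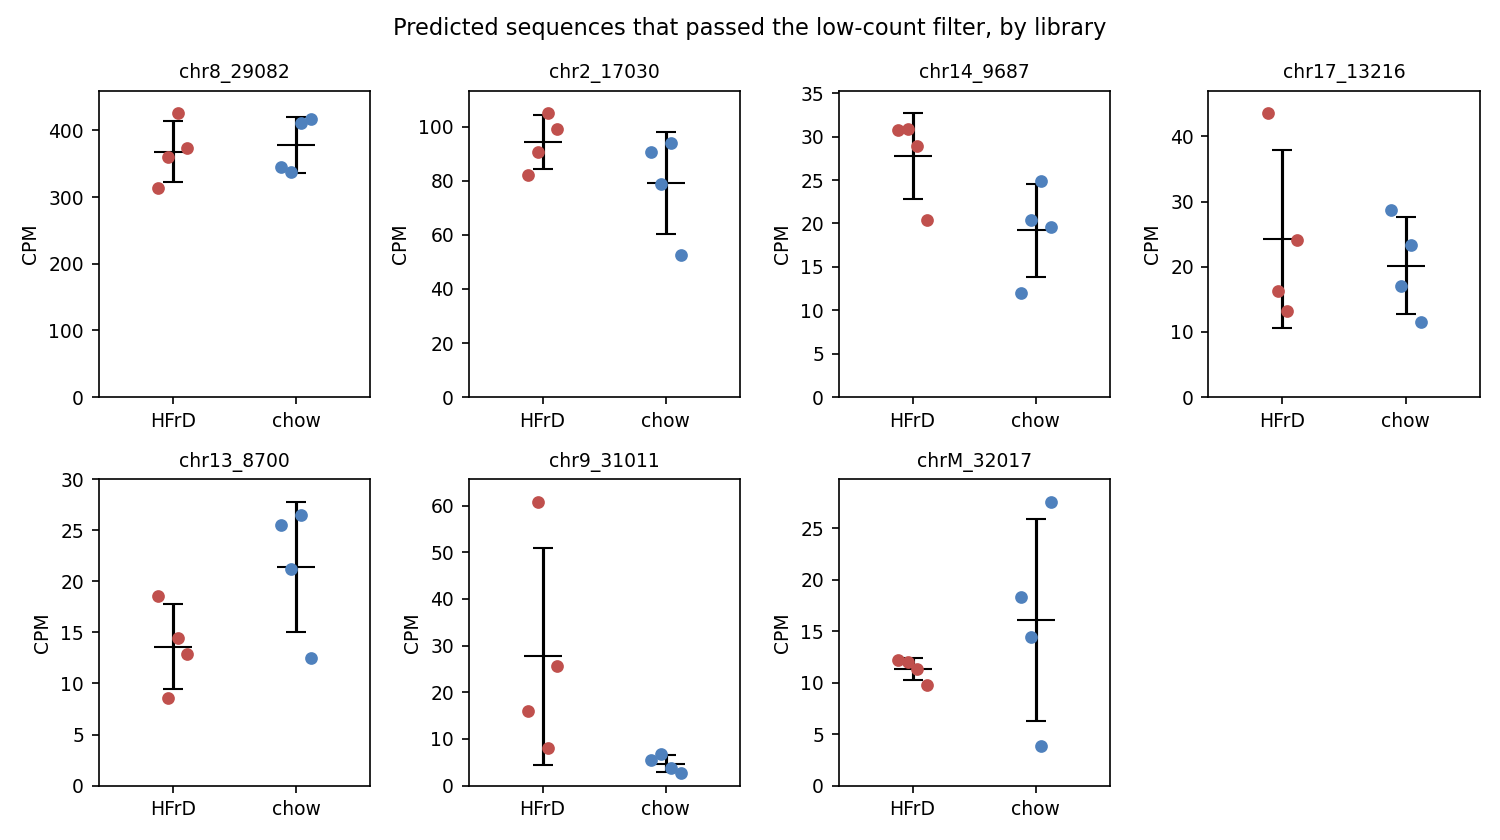
CPM over the scaled library size of the 7 predicted sequences that passed the low-count filter, for HFrD (red) and chow (blue), with 1 point per library and black lines for the mean ± SD (n = 4 each). The points of both diets overlap in every panel except chr9_31011, where HFrD lies at 8.17 to 60.8 and chow at 2.67 to 6.79 CPM.

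The called sequence was chr9_31011, which matches 18S rRNA over its whole length. Its counts were 25, 71, 13 and 34 in HFrD replicates 1 to 4, and 7, 8, 5 and 3 in chow replicates 1 to 4. All HFrD libraries were above all chow libraries, and HFrD replicate 2 was the highest. It passed the minimum count of 10 through the HFrD libraries alone, so a sequence of this level had to differ to be tested, and the count of 1 called among 7 supports nothing about the predicted sequences as a set. It averaged 27.7 ± 23.2 CPM in HFrD and 4.73 ± 1.82 CPM in chow (SD, n = 4 each), which edgeR put at a log2 fold change of 2.46 with an SE of 0.55, or 5.49-fold higher in HFrD, at an adjusted p of 0.0123. Groups that did not overlap, with HFrD higher, were found for 5.88% of the 170 sequences. Over 16 alternatives the adjusted p ran from 6.62e-11 to 0.0713, and it missed the threshold without chow replicate 1 (0.0572) or chow replicate 2 (0.0713). With HFrD replicate 1 or 4 left out it fell under the filter and was not tested. Over the same alternatives the log2 fold change ran from 1.54 to 2.77. The lowest value came from limma on log2 of the authors' normalized values plus 1, a scale that understates changes of low values, and the next lowest, 1.76, from leaving out HFrD replicate 2. Both were past the threshold.

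All 23 bases of chr9_31011 match positions 551 to 573 of the 1849-base 18S copy annotated as CT010467.1, which GENCODE gives on the opposite strand (chr17:39846903-39846925). chr8_29782 covers positions 1346 to 1362 of the same RNA (chr17:39847698-39847714), in a single exon that is also annotated as the long non-coding RNA Gm42418. Copies of ribosomal DNA are numerous and near-identical, so the place of origin is uncertain. chr8_29782 had counts of 0, 3, 2 and 2 in HFrD and 0, 3, 0 and 0 in chow. Summed, the 2 sequences had 25, 74, 15 and 36 counts in HFrD and 7, 11, 5 and 3 counts in chow. The labels' protocol removes rRNA ahead of a stranded total RNA library. Whether this step applied to the small RNA counted here is not given, and how much rRNA each library held was not tested. No established sequence of the table matched an rRNA on either strand.

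The most abundant predicted sequence did not pass the test. chr8_29082, the shortened miR-24-3p, had counts of 490, 420, 677 and 494 in HFrD replicates 1 to 4, and 434, 397, 528 and 469 in chow replicates 1 to 4. The groups overlapped, with 368 ± 46.0 CPM in HFrD and 378 ± 42.2 CPM in chow (SD, n = 4 each), and edgeR gave a log2 fold change of −0.04 with an SE of 0.12 and an adjusted p of 0.823. The sign of this value turned under other scalings, so no direction is given. Full-length miR-24-3p had counts of 590, 413, 567 and 469 in HFrD, and 499, 498, 535 and 640 in chow. edgeR put it at a log2 fold change of −0.32 with an SE of 0.12, which missed the threshold (adjusted p of 0.0953). The short form was thus listed with about as many counts as the established one. All its bases also lie in miR-24-3p, and how reads that match both were assigned is not known here. As a percent of miR-24-3p, its count was 83.1, 101.7, 119.4 and 105.3% in HFrD, and 87.0, 79.7, 98.7 and 73.3% in chow. This ratio averaged 102 ± 15.0% in HFrD and 84.7 ± 10.9% in chow (SD, n = 4 each), with overlapping groups. The difference of 17.7 percentage points had p = 0.114 in a two-sided exact permutation test over 70 assignments, whose smallest possible p is 0.0286. It was the only ratio tested.

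The other 2 sequences that resemble a miRNA were rare beside it. chr17_14226, the start of miR-125a-5p, had counts of 6, 2, 2 and 4 in HFrD, and 2, 0, 2 and 0 in chow. Full-length miR-125a-5p had 36, 31, 29 and 43 counts in HFrD and 42, 38, 29 and 28 counts in chow, so the short form came to 6.52% of it over the 8 libraries. chr4_23017 had counts of 6, 6, 17 and 3 in HFrD, and 7, 0, 7 and 7 in chow, against 5698 to 6296 counts of miR-143-3p in HFrD and 4784 to 6210 in chow. That is 0.117% of miR-143-3p over the 8 libraries.

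Of the 66, 16 share their seed with some mouse miRNA and 6 share it with an established sequence of the table, and both numbers include chr8_29082 and chr17_14226. How many seeds unrelated short sequences would share was not computed. chr1_767 has the seed of miR-122-5p, the main hepatocyte miRNA, and chr6_25816 that of the miR-125 family. chr1_767 was listed in chow replicate 2 alone, with 2 counts, the smallest value in the table, and matched no transcript. chr6_25816 lies in the coding sequence of the murinoglobulin genes Mug1 and Mug2, which encode plasma protease inhibitors, and was listed in HFrD replicate 2 alone, with 5 counts. It matched more than 1 near-identical gene, so its origin among them is uncertain. These 2 are named for their seeds, after their values were seen.

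Of the 5 sequences that match snoRNAs, 2 start at the first base of the RNA, 1 ends at its last base and the other two lie inside it. snoRNAs guide chemical changes of rRNA and are known to be processed into shorter pieces. chr17_13216 is the first 18 bases of the 134-base Snora64 (chr17:24720772-24720789, plus strand), which lies in an intron of the ribosomal protein gene Rps2. chr13_8486 is the first 21 bases of the 134-base snoRNA Gm24507 (chr13:90098981-90099001, plus strand). chr17_14306 is the last 25 bases of the 133-base Snora9 (chr11:6528033-6528057, minus strand). It also matches the near-identical snoRNAs Gm25800 on chromosome 17 and Gm24438 on chromosome X. Its deposited names give chromosomes 17 and X, not that of Snora9. chr7_28490 ends 4 bases before the 3′ end of the 137-base Gm27991. chr1_241 is internal, at bases 38 to 58 of the 131-base Gm23974 and the like bases of 3 other copies.

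**Figure D4:**
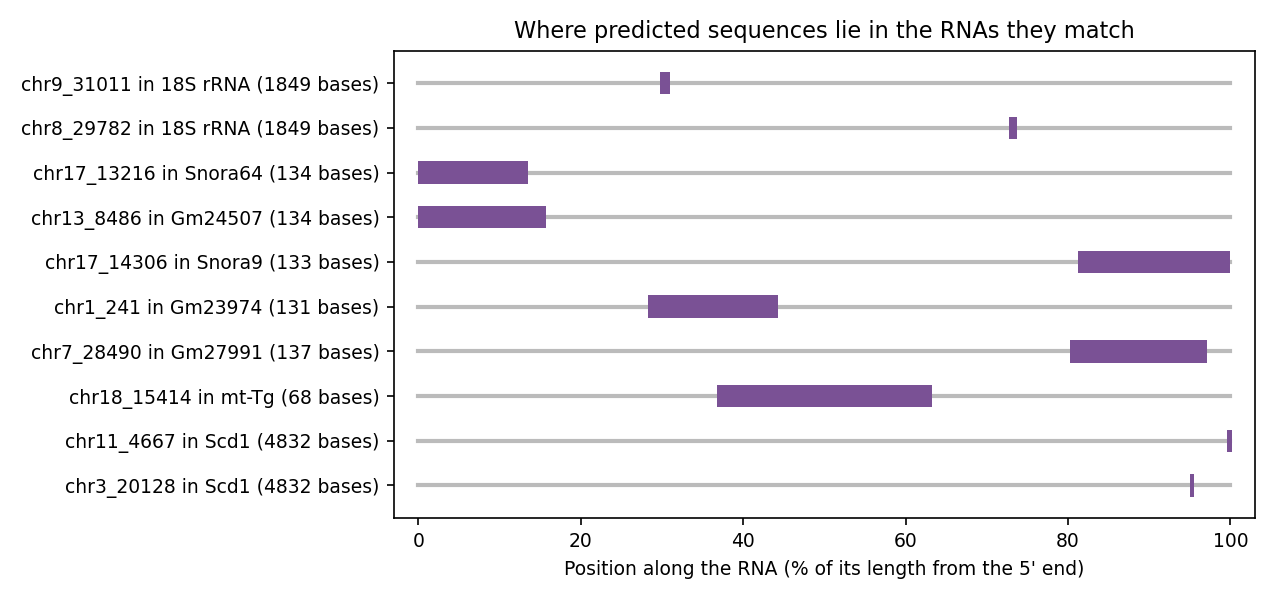
Position of 10 predicted sequences along the RNA they match, in percent of its length from the 5′ end; grey lines are the RNAs and purple blocks the sequences, with the narrowest blocks widened to stay visible. 2 sequences start at the first base of a snoRNA and 1 ends at the last base, and both Scd1 sequences lie near the 3′ end of the mRNA.

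Of these 5, chr17_13216 alone was tested between diets, and it did not pass. It had counts of 68, 19, 21 and 32 in HFrD replicates 1 to 4, and 36, 20, 30 and 13 in chow replicates 1 to 4. HFrD replicate 1 was the highest of the 8, and the other 3 HFrD libraries lay within the range of chow. It averaged 24.3 ± 13.6 CPM in HFrD and 20.1 ± 7.45 CPM in chow (SD, n = 4 each), and edgeR gave a log2 fold change of 0.27 with an SE of 0.35 and an adjusted p of 0.617. Without HFrD replicate 1 the log2 fold change was −0.18. chr17_14306, the highest of the untested sequences, had counts of 7, 6, 10 and 7 in HFrD and 16, 7, 6 and 6 in chow, with overlap. chr13_8486 had 2, 6, 0 and 4 in HFrD and 5, 2, 3 and 0 in chow. chr1_241 had 3, 0, 2 and 2 in HFrD and was blank in all 4 chow libraries. The 5 together summed to 80, 31, 35 and 45 counts in HFrD and 57, 29, 39 and 19 counts in chow.

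**Figure D5:**
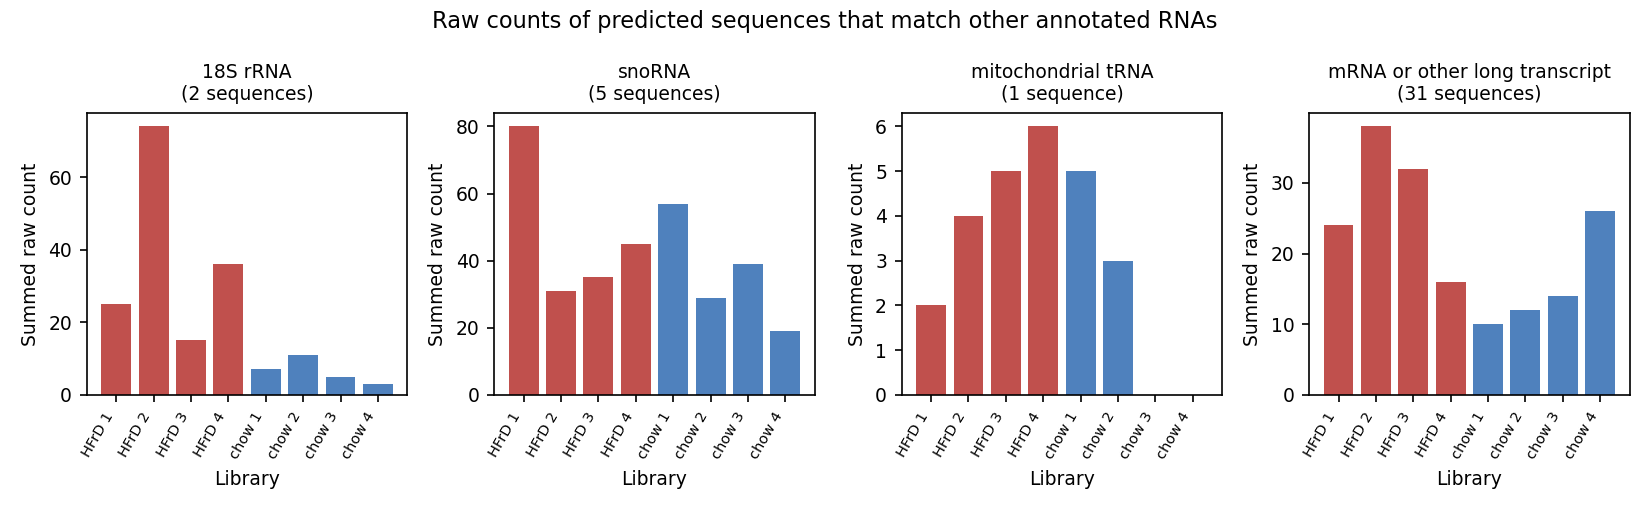
Summed raw counts in each library of the predicted sequences that match 18S rRNA, snoRNAs, a mitochondrial tRNA or mRNAs and other long transcripts, for HFrD (red) and chow (blue) replicates 1 to 4. The 18S sum is 15 to 74 in HFrD and 3 to 11 in chow, and the other 3 sums overlap between diets.

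Mitochondrial tRNAs, which serve protein synthesis inside mitochondria, were matched on the same strand by 1 sequence and on the opposite strand, nearly in full, by another. chr18_15414 covers bases 26 to 43 of the 68-base mt-Tg, the glycine tRNA. Its counts were 2, 4, 5 and 6 in HFrD and 5, 3, 0 and 0 in chow, and the groups overlapped. chrM_32017 runs antisense to the alanine tRNA mt-Ta over 22 of its 23 bases, starting from base 48 of 69. Its counts were 19, 14, 18 and 13 in HFrD and 23, 17, 5 and 31 in chow. HFrD libraries lay close together inside the wide range of chow, at 11.3 ± 1.07 CPM in HFrD and 16.1 ± 9.81 CPM in chow (SD, n = 4 each), and edgeR gave a log2 fold change of −0.48 with an SE of 0.38 and an adjusted p of 0.478.

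The remaining 3 tested sequences have no established identity among the RNAs searched, which leave out tRNAs of the nuclear genome. chr2_17030, of 17 bases, matched annotated transcripts on the opposite strand alone. It had counts of 128, 106, 167 and 131 in HFrD and 114, 93, 121 and 59 in chow, at 94.2 ± 10.0 CPM in HFrD and 79.1 ± 18.9 CPM in chow (SD, n = 4 each), and edgeR gave a log2 fold change of 0.25 with an SE of 0.17 and an adjusted p of 0.415. Chow replicate 4 was the lowest and the groups overlapped. chr14_9687, of 18 bases, had counts of 48, 36, 46 and 27 in HFrD and 15, 24, 32 and 22 in chow. Of the 4 HFrD libraries, 3 were above the highest chow library on the CPM scale, at 27.7 ± 4.96 CPM in HFrD and 19.2 ± 5.37 CPM in chow (SD, n = 4 each). Its log2 fold change of 0.53 (SE 0.24) had an unadjusted p of 0.0441 and missed the threshold after adjustment (0.192, edgeR). chr13_8700, of 19 bases, also missed the threshold. Its counts were 29, 10, 23 and 17 in HFrD and 32, 25, 34 and 14 in chow, at 13.6 ± 4.14 CPM in HFrD and 21.4 ± 6.38 CPM in chow (SD, n = 4 each). The groups overlapped, and edgeR gave a log2 fold change of −0.63 with an SE of 0.28, at an unadjusted p of 0.0372 and an adjusted p of 0.175.

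The mRNA class was the largest by number and small by counts. Its 31 sequences held 172 counts, 2.73% of those of all predicted sequences, with 110 in HFrD and 62 in chow. The sums were 24, 38, 32 and 16 in HFrD replicates 1 to 4, and 10, 12, 14 and 26 in chow replicates 1 to 4. Of the 31, 16 were listed in HFrD alone and 8 in chow alone. Over all 66 predicted sequences these numbers were 28 and 15, and over the 377 established ones 46 and 33. The matches lay in coding sequence in 12, in a 3′ UTR in 13, in a 5′ UTR in 4 and in non-coding transcripts in 2. In 2 of them, in Egfr and Tmprss6, the match ran across the junction of 2 exons, a sequence that is present in spliced mRNA and not in one piece in the gene. Egfr encodes a growth factor receptor and Tmprss6 a protease of iron regulation in hepatocytes, and both are named after their values were seen.

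Scd1 was matched by 2 of them. Scd1, stearoyl-CoA desaturase, makes monounsaturated fatty acids and is a well-known target of carbohydrate feeding in liver. chr11_4667 covers bases 4811 to 4828 of the 4832-base mRNA (chr19:44394459-44394476, minus strand, exon 6), 4 bases from its 3′ end. chr3_20128 covers bases 4590 to 4607 (chr19:44394680-44394697, minus strand, exon 6). Their deposited names place them on chromosomes 11 and 3, and the gene is on chromosome 19. chr11_4667 had counts of 0, 10, 2 and 6 in HFrD replicates 1 to 4 and was blank in all 4 chow libraries. chr3_20128 had 0, 3, 0 and 2 in HFrD and was likewise blank in chow. Together they came to 0, 13, 2 and 8 counts in HFrD and to 0 in every chow library, and HFrD replicate 1 was at 0 as well. The groups therefore met at 0. Neither passed the low-count filter. When edgeR was run on all 443 sequences without a filter it called chr11_4667 (adjusted p = 0.0282, higher in 3 of 4 HFrD libraries), along with chr9_31011, and called 22 sequences in all (4.97%). No fold is given for chr11_4667, because every chow cell is blank. Its call rests on 18 counts in 3 libraries. In the same fit the SE of chr9_31011 was 0.34, against 0.55 with the filter, and its adjusted p (edgeR) was 6.62e-11, against 0.0123. Whether the fit without a filter gives the spread of such low counts rightly was not tested. HFrD replicate 2 was the highest library for the sequences that match Scd1 and for those that match 18S rRNA. chr3_20128 is named after its values were seen.

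Other sequences of the class were rarer still. Apob, the protein backbone of very-low-density lipoprotein, was matched by 2, chr18_15221 and chr3_19443, with summed counts of 2, 3, 0 and 0 in HFrD and 0, 0, 0 and 3 in chow. Selenop, the selenium carrier of plasma, was matched by chr16_11890 in its 3′ UTR, with 5, 0, 4 and 0 in HFrD and 0, 4, 0 and 0 in chow. Alb, which encodes serum albumin, was matched by chr15_10825 with 2 counts in HFrD replicate 1 alone. chr10_3935, one of the longest at 25 bases, matched the lipoprotein receptor gene Lrp1, with 3 counts in HFrD replicate 3 alone. chr7_27059, also of 25 bases, matched Ech1, an enzyme of fatty acid oxidation, with 3 counts in HFrD replicate 2 and 3 in chow replicate 4. At such counts, differences between diets were not detectable. chr3_19443 and chr15_10825 are named after their values were seen.

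The most counted sequence of the class was chr7_27760, in the 3′ UTR of Nlrp12, an innate immune receptor gene (chr7:3218931-3218951, minus strand). The same bases are antisense to the miRNA gene Mir291a. It had counts of 8, 0, 8 and 4 in HFrD and 6, 2, 7 and 7 in chow, and the groups overlapped.

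Among sequences with no match, chr1_215 was listed in all 8 libraries, with counts of 3, 3, 4 and 5 in HFrD and 5, 7, 3 and 10 in chow. chr10_2836 had 5, 2, 4 and 0 in HFrD and 3, 2, 2 and 4 in chow. Both overlapped between diets. chr1_1873 had 3, 2, 0 and 2 in HFrD and was blank in every chow library. It was 1 of 3 sequences, with chr11_4667 and chr1_241, that were listed in at least 3 HFrD libraries and in no chow library, and no predicted sequence showed the opposite pattern. Among the 377 established miRNAs, 5 were listed in at least 3 HFrD libraries and in no chow library, and 0 the other way round. The 43 predicted sequences outside the naming rule had 2 to 11 counts each over the 8 libraries, with a median of 2, and 37 of them were in 1 library.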

How the data were processed

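The authors deposited raw tag counts per mature miRNA, whole numbers for each of 8 liver libraries, per the file headers. Their second table holds a normalized score, deposited as rounded values, which equals the raw count divided by a constant of 4.21 to 6.19 per library to within 0.626. The sources used here do not say how that constant was derived. cutadapt 1.9.2, Novoalign 3.02.12 and the build mm10 are named in the submitters' processing notes. The labels' protocols name TRIzol extraction, rRNA depletion and a stranded total RNA library. How small RNA was selected is not given, and without molecular identifiers, repeated reads of a molecule cannot be told from separate molecules.

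The 484 entries were merged by mature sequence into 443. Counts were tested with edgeR 4.0.16 in R 4.3.3 (quasi-likelihood, two-sided, trimmed mean of M-values (TMM) factors, filterByExpr at a minimum count of 10, diet as the only term, threshold 0.05). The fit was also run on simulated counts with a fixed spread set by hand, which does not test it at the spread of these libraries. CPM use TMM-scaled library sizes, except marker sums and the value of 1 count, which use library totals. Alternatives were other scalings and filters, DESeq2 1.42.0, limma 3.58.1 on log2 of the score plus 1, blank cells as 1, unmerged entries, a replicate block and leaving out each library. Sequences were matched exactly to GENCODE M21 transcripts and RefSeq miRNAs with Python 3.11.15, and 18S rRNA on both strands. The predicted sequences and all lists were chosen with earlier results of these data known. Named with values are those past the filter, the next 10 by summed count, those in at least 3 libraries of a diet and none of the other, the 3 longest and 3 shortest, and those sharing 16 or more bases with an established miRNA.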

Additional observations from a re-analysis of the deposited data

How the results depend on the processing

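Of all sequences tested, 10 were called with TMM factors, 23 with library totals, 1 with upper quartile factors, 22 without a filter and 20 with limma on the authors' score, and 1 to 17 with a library left out. The median log2 fold change was 0.12 higher with library totals and 0.11 higher with upper quartile factors than with TMM. Of the predicted sequences, 1 was called, 2 without a filter and 0 to 1 with a library left out. It was 0 without HFrD replicate 1, HFrD replicate 4, chow replicate 1 or chow replicate 2, and 0 when the 18S sequences were left out, an alternative chosen after seeing the data. For chr8_29082 the log2 fold change was 0.0831 with library totals, 0.0809 with upper quartile factors, 0.0818 with limma, 0.0298 without a filter, 0.0264 at a minimum count of 5, and −0.1204 to 0.0555 with a library left out, above 0 without HFrD replicate 1 or chow replicate 3. For chr17_13216 it was −0.1785 to 0.4969 with a library left out, below 0 without HFrD replicate 1. Other tested predicted sequences kept their sign in each alternative that tested them. The cause of these changes was not tested.

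The mean share was 0.0675% in HFrD with blank cells as 1, and 0.0617% in HFrD without chr9_31011. Without chr8_29082 it was 0.0263% in HFrD and 0.0194% in chow. It ran from 0.0637 to 0.0650% in HFrD and from 0.0543 to 0.0569% in chow with a library left out. The mean number listed was 18.5 in HFrD and 14.25 in chow at 3 or more counts, against 27 and 19.5, and 25.7 to 28.3 in HFrD and 18.7 to 20 in chow with a library left out. Detection with blank cells as 1 was not run, as every sequence would count as detected. Matches on either strand were found for 45 of 66 sequences, against 40, and runs of 14 or 18 bases shared with a miRNA for 3 and 2, against 3.

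Same-numbered libraries are not stated to share a mouse or day, and the correlations of their deviations were 0.146, −0.0996, 0.0536 and 0.0118. With the replicate block, 15 of all sequences and 1 predicted sequence were called. At counts of 2 to 5 in 1 library, depth limits any comparison.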
